A study of Mus musculus with 4 samples.

Results

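The CCN genes encode a small family of secreted matricellular proteins, and Ccn1 to Ccn5 are described here in the smooth muscle cells and fibroblasts of the mouse ascending aorta. The members were chosen by name as a family, with earlier results of these data known. They are 5 of the 18112 genes that could be matched across the 3 libraries. The library of the SHF baseline sample lists them under their older names, Cyr61, Ctgf, Nov, Wisp1 and Wisp2. Smooth muscle cells were those with at least 5 UMIs (unique molecular identifiers, each counting 1 captured transcript) of Myh11, the smooth muscle myosin heavy chain, and 0 UMIs of Pdgfra. Fibroblasts were those with at least 1 UMI of Pdgfra, a growth factor receptor of fibroblasts, and at most 2 UMIs of Myh11.

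The study asked how aortic cells that arise from the second heart field (SHF) and cells of other origin differ in their response to angiotensin II (AngII), a peptide that raises blood pressure and injures the ascending aorta of mice. Every group was made of male Mef2c-mTmG mice, a strain whose fluorescent reporter records cell lineage. Viable singlets were separated by that reporter and captured in droplets. SHF baseline cells came from mice without infusion, whereas SHF AngII cells and CNC AngII cells came from mice infused with AngII for 3 days. The labels do not spell out CNC, and the dose, the age and the number of mice per library are not given in the sources used here. CNC baseline cells were not analysed here. Each group is 1 library, so the spread between mice is unknown and no test between groups could be made. Intervals below are exact 95% intervals that cover counting error only.

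CCN proteins sit in the extracellular matrix, where they bind integrins, proteoglycans and growth factors and change how cells adhere, migrate, proliferate and lay down matrix. Ccn1 and Ccn2 are rapidly induced by mechanical load, serum and AngII through the transcriptional coactivators YAP and TAZ and their TEAD partners, and Ccn2 is also a classical target of TGF-beta. Ccn3 is expressed in arterial smooth muscle and is known as a brake on vascular cell growth. Ccn4 and Ccn5 were first described as Wnt-induced genes. Ccn5 lacks the C-terminal cystine knot module that the other members carry and is known to oppose smooth muscle proliferation.

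The gene models place the members on chromosomes 2, 3, 10 and 15 of GRCm38, the assembly that the labels name as mm10. Ccn1 lies at chr3:145646976-145649981 on the minus strand, Ccn2 at chr10:24595442-24598683, Ccn3 at chr15:54745702-54754039, Ccn4 at chr15:66891320-66923201 and Ccn5 at chr2:163820861-163833146, the last 4 on the plus strand. Ccn1 to Ccn4 have 5 coding exons each and 379, 348, 354 and 367 codons. Ccn5, the member without the last module, has 4 coding exons and 251 codons. An exon of Gm15270 overlaps Ccn2 on the opposite strand. The sources do not say whether counting used the strand, so it is not known whether reads of the pair were kept apart.

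The promoter of Ccn1 is shown because the immediate early behaviour of this gene carries one of the results below. The 250 bases before its start, chr3:145649986-145650235 on the minus strand of GRCm38.p6 as given by RefSeq, are printed 5′ to 3′ with 2 motifs in capitals, first the TEAD motif CATTCC and then the cyclic AMP response half-site CGTCA.
Ccn1 promoter: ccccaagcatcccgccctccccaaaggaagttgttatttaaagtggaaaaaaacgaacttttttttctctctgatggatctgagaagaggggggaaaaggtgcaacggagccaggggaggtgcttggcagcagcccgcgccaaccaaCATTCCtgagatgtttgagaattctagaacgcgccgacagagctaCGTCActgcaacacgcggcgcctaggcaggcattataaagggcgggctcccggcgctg
The TEAD motif begins 103 bases before the start, and 12.6% of 32851 promoters of the same length hold it on either strand. The response half-site begins 58 bases before the start, and 17.8% of those promoters hold it. The AP-1 motif TGANTCA, held by 6.75% of promoters, and the CArG box bound by SRF, held by 1.47%, have no match in this window. The motifs were chosen with the sequence in view, none overlaps another, and a match is a description of letters, not of a bound site.

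After filtering, 8374 SHF baseline cells, 9299 SHF AngII cells and 10194 CNC AngII cells were kept. Where 3 values follow each other without library names, they stand in this order. The smooth muscle gate held 2259, 4649 and 6385 of them and the fibroblast gate 3939, 2640 and 842. Median UMIs per cell ran from 12441 to 13450 in smooth muscle cells and from 9534 to 15486 in fibroblasts. All 7 smooth muscle markers in the smooth muscle gate, and all 8 fibroblast markers in the fibroblast gate, stood at a level of 10 CPM or more in each library, where CPM is the number of UMIs of a gene per 1000000 UMIs summed over the cells of a gate. Macrophage markers summed to 297 CPM in the smooth muscle cells of CNC AngII, against 2.61 and 1.35 in those of the SHF libraries. Between 29 and 34 cell barcodes were shared by each pair of libraries.

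The cell type was the main axis along which the family divided. Ccn3 was higher in smooth muscle cells, Ccn4 and Ccn5 were higher in fibroblasts, and Ccn1 and Ccn2 were abundant in both. Levels are given in CPM, and ratios as log2 of such levels after adding 1 to each. The interval of a ratio is that of the levels without the added 1, so for a low gene the ratio can lie just outside it. A gene counted as past 2-fold when this log2 ratio reached 1 in either direction, among genes with a mean level of at least 10 in the sums compared. All 5 members passed that level filter in every comparison.

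Ccn3, the smooth muscle member, had smooth muscle levels of 1327 CPM at SHF baseline, 1138 under SHF AngII and 761 under CNC AngII. In fibroblasts its levels were 47.1, 357 and 426. Smooth muscle cells were thus the higher class in every library, but by very different margins. The log2 ratio of smooth muscle over fibroblast was 4.79 (interval 4.75 to 4.89) in SHF baseline, which ranked 47 among the 7733 genes compared. It was 1.67 (1.65 to 1.69) in SHF AngII and 0.84 (0.80 to 0.88) in CNC AngII, where it was short of 2-fold. With the mean of per-cell shares in place of summed UMIs the last value was 1.19, and 5 of its 19 alternative settings put it past 2-fold.

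Ccn5, which antagonises smooth muscle growth, lay the other way. Its fibroblast levels were 575, 1027 and 1201 CPM. Its smooth muscle levels were 72.3, 72.0 and 101. Every fibroblast value was above every smooth muscle value, and the log2 ratio of smooth muscle over fibroblast was -2.97 (-3.06 to -2.93), -3.82 (-3.88 to -3.79) and -3.55 (-3.60 to -3.53). Ccn4, the other Wnt-induced member, had fibroblast levels of 62.7, 139 and 131 and smooth muscle levels of 10.1, 17.0 and 9.46. The gap between the classes was -2.52 (-2.82 to -2.46) at baseline, and under AngII -2.96 (-3.13 to -2.94) for SHF and -3.65 (-3.91 to -3.67) for CNC. In the 120 smooth muscle cells of SHF baseline that passed a stricter cell filter, the first of these was -0.90, short of 2-fold.

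Ccn1, the integrin ligand induced as an immediate early gene, stood at 1026, 739 and 578 CPM in smooth muscle cells. In fibroblasts it stood at 1679, 755 and 791. Fibroblasts were the higher class in SHF baseline, with a log2 ratio of smooth muscle over fibroblast of -0.71 (-0.73 to -0.69). Among cells with a low share of immediate early transcripts (the lowest tertile described below) this ratio turned to 0.36, and in the highest tertile it was past 2-fold at -1.08. The tertiles were cut separately in each class, so the classes were not matched in this share. Immediate early transcripts summed to 3434 CPM in smooth muscle cells and 5126 in fibroblasts of the lowest tertile, and to 21471 and 32026 in the highest. In SHF AngII the ratio was -0.03 (-0.05 to -0.01) and turned to 0.17 under TMM scaling. Ccn2, the profibrotic member known as connective tissue growth factor, stood at 2198, 2998 and 2801 in smooth muscle cells and at 1984, 2094 and 2549 in fibroblasts. Its class ratios were 0.15, 0.52 and 0.14, so no library separated the classes by 2-fold.

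In numbers of members, 3 of 5 were past 2-fold between the classes at SHF baseline, 1 higher and 2 lower in smooth muscle cells, where 21.4% of all genes compared were past it, 7.56% higher and 13.9% lower. Under SHF AngII 3 of 5 were past it, again 1 higher and 2 lower, against 22.4% of genes, 9.57% higher and 12.8% lower. Under CNC AngII 2 of 5 were past it, both lower, against 21.4% of genes, 9.22% higher and 12.1% lower. The median log2 ratio over all genes was -0.19, -0.11 and -0.11 in these comparisons, and TMM scaling moved it up by 0.25, 0.20 and 0.23.

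**Figure D1:**
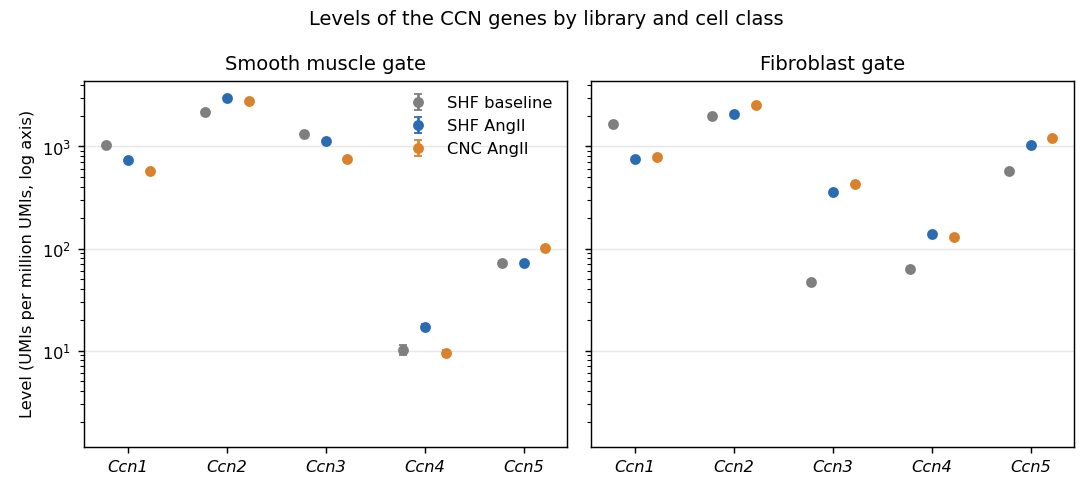
Levels of Ccn1 to Ccn5 in CPM (vertical log axis) in the smooth muscle gate (left) and the fibroblast gate (right), with 1 point per library and bars for the exact 95% counting interval, mostly hidden by the points. Ccn3 lies at 47.1 in SHF baseline fibroblasts and at 357 and 426 in the fibroblasts of the AngII libraries, while its smooth muscle levels run from 761 to 1327.

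The AngII library of the SHF lineage differed from its baseline mainly in the fibroblasts. The baseline library lists 18760 genes and the AngII library 32285, so infusion cannot be told apart from a difference in processing. Ccn3 was 7.45-fold higher there, Ccn4 2.20-fold higher and Ccn1 2.22-fold lower, while Ccn2 and Ccn5 were short of 2-fold. That made 3 of 5 members past 2-fold, where 15.3% of the 7693 genes compared were past it, 4.64% higher and 10.7% lower. The median of all genes was -0.21 on the log2 scale.

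Ccn3 gave the widest gap of the family. Its log2 ratio of 2.90 (2.85 to 3.00) placed it 77th among the 7693 genes, with 0.988% of genes above it. The share of fibroblasts with a Ccn3 UMI, after each cell was thinned to 3000 UMIs, was 9.57% (8.63 to 10.6) at SHF baseline and, under AngII, 40.5% (38.6 to 42.4) for SHF and 43.0% (39.6 to 46.5) for CNC. Before thinning, 789 of 3939, 1684 of 2640 and 511 of 842 fibroblasts had one. As a background for free RNA, no endothelial cell had a thinned Ccn3 UMI in SHF baseline (0 of 47 cells) or SHF AngII (0 of 30 cells). That allows up to 6.38% and 10.0%. In CNC AngII 6.67% (0.818 to 22.1) of 30 endothelial cells and 3.24% of macrophages had one. Each fibroblast share lay above the limit or shares of its own library, and the part of free RNA was not tested.

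The summed level of the 7 smooth muscle markers in fibroblasts also differed between the libraries, at 1303, 4058 and 3960 CPM. Most of it was Acta2, at 584, 1987 and 1984, and Tagln, at 606, 1965 and 1844. Myh11 and Cnn1 were low but higher in both AngII libraries, whereas Lmod1 stood at 44.0, 35.1 and 43.8, Smtn at 43.3, 41.8 and 54.9 and Synpo2 at 13.6, 4.81 and 5.59. As a percentage of its level in smooth muscle cells of the same library, Ccn3 in fibroblasts was 3.55%, 31.4% and 55.9%. The actin gene Acta2 was at 1.97%, 5.58% and 5.91% on this measure and the calponin gene Cnn1 at 0.420%, 0.794% and 0.777%. The highest of the other markers was the smoothelin gene Smtn, at 9.11%, 12.2% and 15.0%. Ccn3 thus lay within the range of these markers in SHF baseline and above all 6 of them in both AngII libraries. In fibroblasts with no UMI of Myh11 or Cnn1, the Ccn3 levels were 44.1, 354 and 419, and the log2 ratio of SHF AngII over SHF baseline was 2.97. After 5% of each library's overall profile was subtracted as free RNA, the baseline level was 18.0 and the ratio 4.15.

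**Figure D2:**
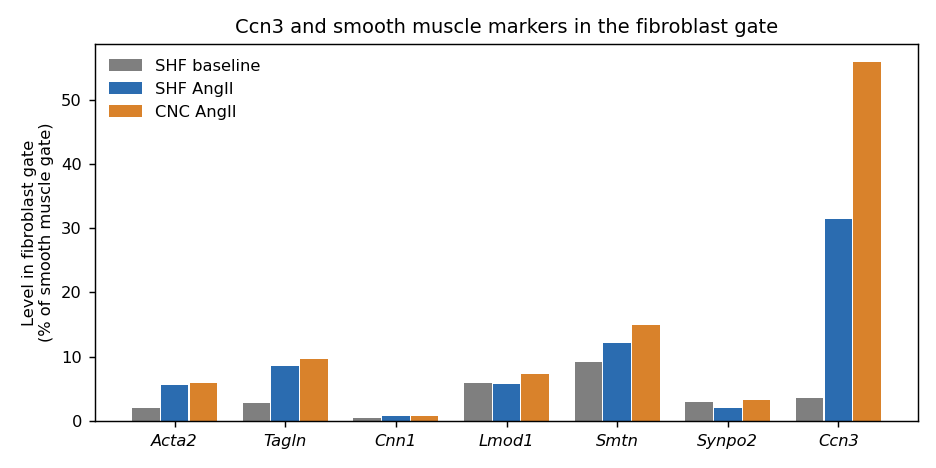
Level in the fibroblast gate as a percentage of the level in the smooth muscle gate of the same library, for 6 smooth muscle markers and Ccn3, with 1 bar per library. The Ccn3 bars reach 31.4% and 55.9% in the AngII libraries, where the highest marker bars, those of Smtn, reach 12.2% and 15.0%.

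Ccn4 in fibroblasts differed by 1.14 (1.08 to 1.22) on the log2 scale between SHF AngII and SHF baseline. Thinned to equal depth, 14.8% (13.7 to 16.0) of baseline fibroblasts and 28.4% (26.6 to 30.2) of SHF AngII fibroblasts had a Ccn4 UMI, and the CNC AngII share was 25.7% (22.7 to 28.8). Among 1389 thinned macrophages of CNC AngII none had a Ccn4 UMI, which allows a share of up to 0.216%. Ccn5 differed by 0.84 (0.81 to 0.86). Its thinned share was 36.0%, 68.8% and 74.4% of fibroblasts, against 1.66% of CNC AngII macrophages and, of endothelial cells, 2.13% at SHF baseline and 13.3% (3.76 to 30.7) in SHF AngII. The cells with a Ccn5 UMI were thus the minority of fibroblasts at baseline and the majority in both AngII libraries. TMM scaling put Ccn5 past 2-fold, at 1.11.

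Ccn1 in fibroblasts differed by -1.15 (-1.17 to -1.13), and 7.37% of genes had a lower ratio. TMM scaling gave -0.87, short of 2-fold. Ccn2 differed by 0.08 (0.06 to 0.09), with 32.9% of genes above it.

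In smooth muscle cells no member was past 2-fold between SHF AngII and SHF baseline, against 6.39% of the 7000 genes compared, 2.86% higher and 3.53% lower. Ccn4 had the highest ratio, 0.70 (0.57 to 0.94), but its levels were low, at 17.0 and 10.1 CPM, and it turned to -0.41 under the stricter cell filter that left 120 baseline cells. Ccn2 was higher by 0.45 (0.43 to 0.46). Ccn1 was lower by 0.47 on the log2 scale, with a ratio of -0.47 (-0.49 to -0.45), and Ccn3 had a ratio of -0.22 (-0.24 to -0.20) that shrank to -0.05 under TMM scaling and turned to 0.05 in the highest tertile of the immediate early share. The Ccn5 levels of 72.0 and 72.3 had overlapping intervals, and its ratio was -0.01 (-0.08 to 0.07). The median of all genes was -0.10, and TMM scaling raised it by 0.18 in smooth muscle cells and by 0.28 in fibroblasts.

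CNC AngII and SHF AngII were close to each other across genes, and no CCN member was past 2-fold in either class. The share of all genes past 2-fold was 0.798% in smooth muscle cells, 0.443% higher and 0.355% lower in CNC, and 0.610% in fibroblasts, 0.457% higher and 0.152% lower. In smooth muscle cells Ccn4 had a ratio of CNC over SHF of -0.78 (-0.97 to -0.72) and Ccn3 of -0.58 (-0.59 to -0.57), with 0.547% and 1.01% of genes below them. Ccn5 had a ratio of 0.49 (0.45 to 0.54), with 1.39% of genes above it. These 3 members therefore sat in the tails of a narrow distribution. Ccn1 was at -0.35 (-0.37 to -0.34) and Ccn2 at -0.10 (-0.11 to -0.09). With each cell thinned to 3000 UMIs, Ccn4 reached -1.05, and 1 of 5 members was past 2-fold. The share of all genes past it was not computed in thinned cells. Over the alternatives the Ccn5 ratio ran from 0.16 under the stricter cell filter to 0.92 with free RNA subtracted.

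In fibroblasts the CNC over SHF ratios were 0.07 (0.03 to 0.10) for Ccn1, 0.28 (0.26 to 0.30) for Ccn2 and 0.25 (0.21 to 0.30) for Ccn3. They were -0.09 (-0.18 to -0.01) for Ccn4 and 0.23 (0.20 to 0.25) for Ccn5. The median of all genes was 0.01 in fibroblasts and 0.00 in smooth muscle cells. The comparison with SHF baseline and the comparison with CNC AngII share the SHF AngII library. The macrophage markers that stood at 297 CPM in CNC AngII smooth muscle cells, and at 211 in CNC AngII fibroblasts against 19.7 in SHF AngII fibroblasts, move with this comparison. With cells that held a UMI of Ptprc, Pecam1, Cdh5 or Msln left out, the smooth muscle ratio of Ccn3 was -0.57, that of Ccn4 -0.76 and that of Ccn5 0.52. This kept 95.8% of the smooth muscle cells of CNC AngII. Ptprc was in 1.88% of them but the macrophage marker Lyz2 in 27.8%, so most cells with Lyz2 stayed in. Fibroblast markers in smooth muscle cells differed as well. Dcn stood at 174 CPM in SHF AngII and 20.3 in CNC AngII, and Lum at 75.3 and 8.83. Col1a1 alone lay the other way, at 1105 and 1138. In smooth muscle cells with no UMI of Dpt or Lum, Ccn4 stood at 14.1 and 8.68 and Ccn5 at 58.6 and 96.3. The part of fibroblast RNA was not tested.

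**Figure D3:**
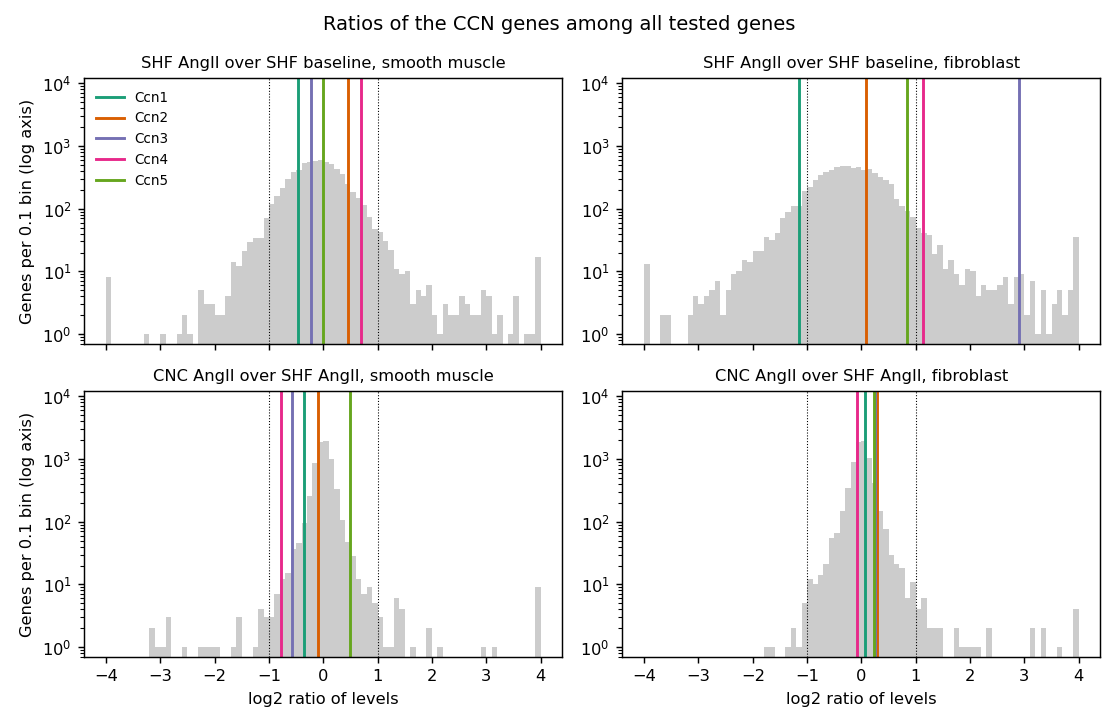
Distribution of log2 ratios over all genes compared (grey, genes per bin of width 0.1 on a log axis, with genes beyond 4 in either direction gathered in the end bins) and the ratio of each CCN gene (coloured lines), for SHF AngII over SHF baseline (top) and CNC AngII over SHF AngII (bottom). Dotted lines mark 2-fold, and Ccn3 in fibroblasts (top right) stands at 2.90.

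The cells that carried each transcript differed as much as the sums. In smooth muscle cells Ccn2 and Ccn3 were nearly universal, with unthinned shares of cells with a UMI of 97.6%, 98.3% and 99.5% for Ccn2 and 98.3%, 98.1% and 97.9% for Ccn3. In CNC AngII macrophages, at a median of 11631 UMIs per cell against 13450, the shares were 44.4% and 13.5%. The median smooth muscle cell held 21.0, 34.0 and 37.0 Ccn2 UMIs. The corresponding medians of Ccn3 were 15.0, 15.0 and 10.0. After thinning, the share of smooth muscle cells with 4 or more Ccn2 UMIs was 60.9%, 75.1% and 81.5%, whereas for Ccn3 it was 48.9%, 47.5% and 28.2%. The share of cells rich in Ccn2 was thus higher in both AngII libraries, and that of cells rich in Ccn3 lower in CNC AngII.

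Ccn2 varied more among fibroblasts than among smooth muscle cells. The variance of its thinned UMIs divided by their mean was 10.2, 8.58 and 7.83 in fibroblasts and 6.07, 4.67 and 3.25 in smooth muscle cells. The 10% of fibroblasts with the most Ccn2 UMIs held 42.3%, 38.0% and 33.2% of them. In SHF AngII fibroblasts the top 10% by Ccn3 UMIs held 52.9% of them, and in CNC AngII 55.5%. The median fibroblast held 0, 2 and 1 Ccn3 UMIs, while single fibroblasts reached 50, 85 and 92. In the AngII libraries Ccn3 in fibroblasts was therefore spread over many cells at low counts and concentrated in a minority at high counts. At SHF baseline 90.4% of thinned fibroblasts had 0 Ccn3 UMIs, and the top 10% of cells held 100% of the UMIs.

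**Figure D4:**
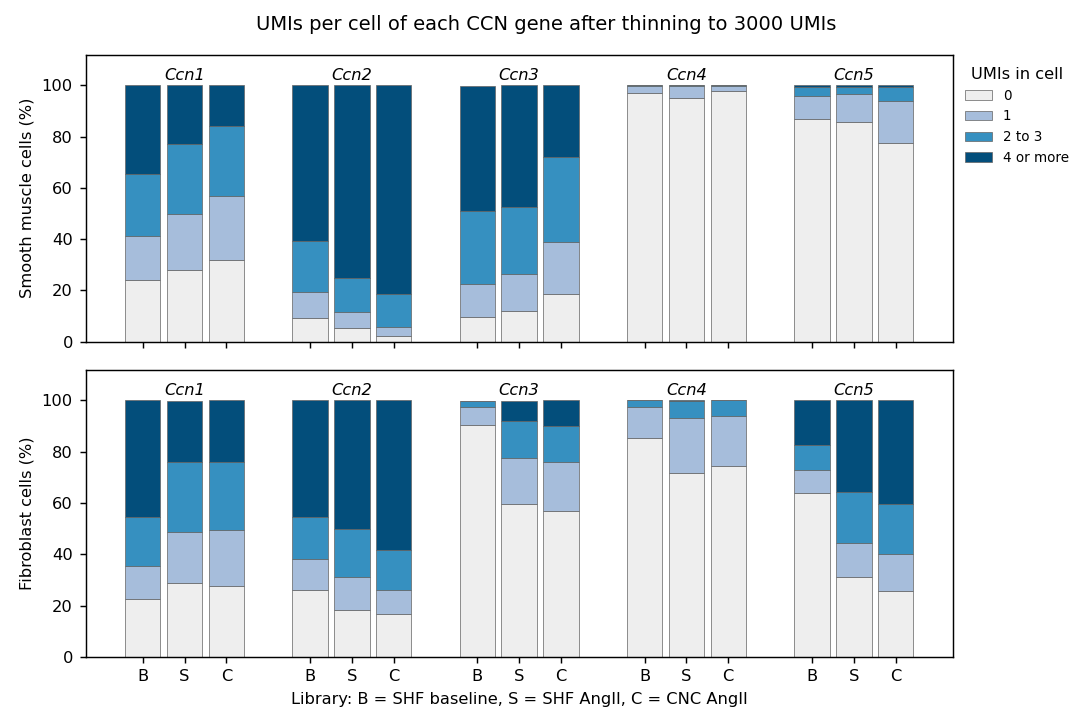
Share of cells (percent, vertical axis) with 0, 1, 2 to 3, or 4 or more UMIs of each CCN gene after every cell was thinned to 3000 UMIs, for smooth muscle cells (top) and fibroblasts (bottom) of SHF baseline (B), SHF AngII (S) and CNC AngII (C). In fibroblasts the share with a Ccn3 UMI is 9.57% in B, 40.5% in S and 43.0% in C.

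Members were also compared within the same cells. Among thinned SHF AngII fibroblasts with a Ccn3 UMI, 90.5% also had one of Ccn2, against 76.1% of those without. For Ccn5 the shares were 83.3% and 58.9%, for Ccn4 36.9% and 22.6%, and for Ccn1 75.6% and 68.5%. CNC AngII fibroblasts showed the same order, with 93.8% against 75.6% for Ccn2 and 86.7% against 65.2% for Ccn5. In SHF baseline fibroblasts, where Ccn3 was low, the Ccn2 shares were 76.2% and 73.9%. The other members had wider gaps there, with 49.7% against 34.6% for Ccn5, 18.9% against 14.4% for Ccn4 and 84.9% against 76.8% for Ccn1. Across cells, Pearson's r of Ccn2 with Ccn3 was 0.04, 0.23 and 0.29 in fibroblasts and -0.01, -0.05 and -0.04 in smooth muscle cells. For Ccn1 with Ccn3 it was 0.03, 0.09 and 0.14 in fibroblasts and 0.04, 0.02 and 0.01 in smooth muscle cells, so at SHF baseline the classes were alike in both pairs to within 0.05. These correlations describe cells of 1 library, share its depth and carry no test.

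Ccn1 followed the immediate early genes, the transcripts such as Fos, Jun and Egr1 that respond within minutes to stimuli. The 18 immediate early genes of the list summed to 15867, 9116 and 8255 CPM in smooth muscle cells. In fibroblasts they summed to 21620, 10606 and 9903. The baseline library was the highest in both classes, as it was for Ccn1. Over cells, the gene most like Ccn1 was Egr1, a zinc finger transcription factor, with a mean Pearson's r over the 3 libraries of 0.31 in smooth muscle cells and 0.45 in fibroblasts. Next came Atf3 and Fos at 0.29 each in smooth muscle cells, and Junb at 0.43 and Btg2 at 0.40 in fibroblasts.

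Fibroblasts of all libraries were then placed in tertiles of the summed share of these genes, cut over the libraries together, an alternative chosen after seeing the data. In the lowest tertile, Ccn1 stood at 490 CPM (895 cells), 483 (1174 cells) and 547 (405 cells). In the middle tertile it stood at 1220, 897 and 948. In the highest tertile it stood at 2387 (2032 cells), 1249 (355 cells) and 1422 (87 cells). The summed immediate early levels of the libraries were close in the middle tertile, at 14035, 13582 and 13405 CPM. In the highest tertile they differed, at 32026, 22666 and 23592. The log2 ratio of SHF AngII over SHF baseline was -0.02 in the lowest tertile and -0.93 in the highest, against -1.15 over all fibroblasts. The intervals of the SHF libraries overlapped in the lowest tertile and stood apart in the middle and highest tertiles. In smooth muscle cells the lowest tertile gave 630, 470 and 376, and the ratio of SHF AngII over SHF baseline was -0.42, close to the -0.47 over all cells. The part of the immediate early response in these levels was not tested.

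**Figure D5:**
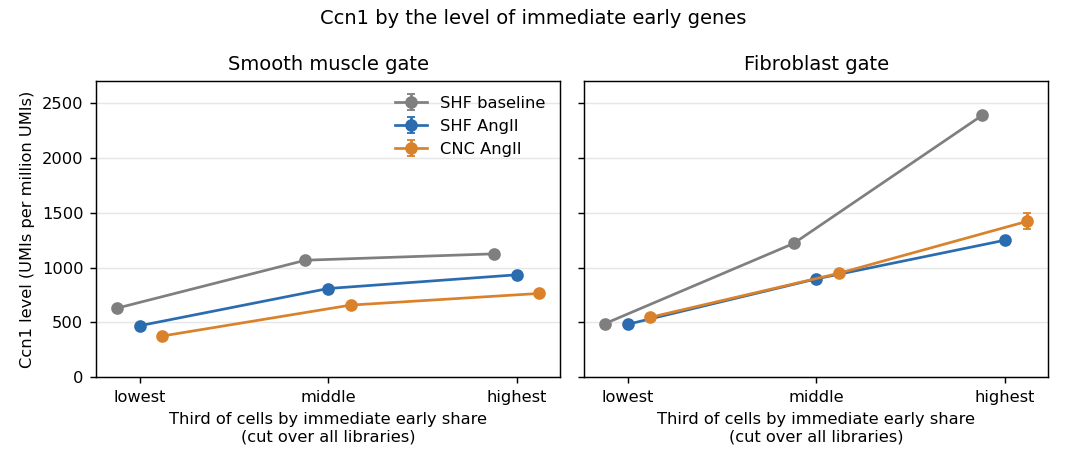
Ccn1 level in CPM (vertical axis) in tertiles of cells by the summed share of 18 immediate early genes, cut over the 3 libraries together but separately in each class, with bars for the exact 95% counting interval. Fibroblasts of the lowest tertile lie at 490, 483 and 547 CPM (grey, blue and orange), and those of the highest at 2387, 1249 and 1422.

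The other members were read in the same tertiles. In the lowest tertile of fibroblasts the ratio of SHF AngII over SHF baseline was 2.76 for Ccn3, 1.72 for Ccn4, 1.17 for Ccn5 and 0.40 for Ccn2. In the highest tertile it was 2.5, 0.28, 0.40 and -0.37. There SHF baseline had the higher immediate early level, at 32026 CPM against 22666 in SHF AngII. Ccn3 was past 2-fold in both tertiles, whereas Ccn4 and Ccn5 were past it in the lowest but not in the highest. In the highest tertile 1 of 5 members was past 2-fold, but the share of all genes past it in these cells was not computed. In the middle tertile Ccn4 stood at 50.6 CPM in SHF baseline and 150 in SHF AngII, and Ccn5 at 417 and 1092. In smooth muscle cells Ccn2 was higher in SHF AngII by 0.82 in the lowest tertile and by 0.24 in the highest. In that highest tertile the immediate early levels also differed, at 21471 CPM in SHF baseline and 15903 in SHF AngII.

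Subgroups set by genes outside the family gave further contrasts. Spp1 encodes osteopontin, a matrix protein of modulated smooth muscle cells, and 457 SHF AngII and 1358 CNC AngII smooth muscle cells held a UMI of it, against 10 in SHF baseline. Ccn3 stood at 675 CPM in SHF AngII cells with Spp1 and at 1214 in those without, and at 516 and 857 in CNC AngII. Ccn4 went the other way, at 24.1 with and 15.8 without in SHF AngII and at 13.7 and 7.79 in CNC AngII. In the AngII libraries Ccn3 was likewise lower in smooth muscle cells with a UMI of the proliferation genes Top2a or Mki67, at 702 (92 cells) against 1151 in SHF AngII and at 379 (320 cells) against 795 in CNC AngII. In SHF baseline it lay the other way, at 1529 (10 cells) against 1326. Leaving out the Spp1 cells moved the CNC over SHF ratio of Ccn3 from -0.58 to -0.50.

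Ccn5 in smooth muscle cells went with Igfbp2, an insulin-like growth factor binding protein. Its levels with and without an Igfbp2 UMI were 118 and 55.2 at SHF baseline, and under AngII 77.3 and 57.3 for SHF and 110 and 55.5 for CNC. Cells without Igfbp2 were nearly level across the libraries, and the share of smooth muscle cells with an Igfbp2 UMI was 23.7%, 67.5% and 81.0%. Ccn2 was lower in smooth muscle cells with a UMI of Tnnt2, a troponin gene, at 2693 against 3393 in SHF AngII and at 2613 against 2858 in CNC AngII.

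In fibroblasts, cells with a UMI of Pi16, a gene of adventitial fibroblasts, held more Ccn5, with 614 against 325, 1067 against 574 and 1259 against 798 CPM. Cthrc1, a gene of activated fibroblasts, separated Ccn4 differently by library. Its levels with and without Cthrc1 were 42.3 and 66.5 at SHF baseline but under AngII 146 and 120 for SHF and 150 and 90.1 for CNC. Fibroblasts with a UMI of Comp or Chad, genes of cartilage-like matrix, held more Ccn2 in each library, at 2657 against 1891, 2488 against 1935 and 2720 against 2434.

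The genes most like the remaining members over cells were read in the same way. In fibroblasts Ccn2 was most like Pmepa1 and Ltbp2, both TGF-beta related, with a mean r of 0.52 each, followed by the elastin gene Eln at 0.49. Ccn3 in fibroblasts was most like Acta2 at 0.35, then Eln and the fibulin gene Fbln5 at 0.34 each, and all 3 were lower in SHF baseline, at 0.16, 0.14 and 0.17, than in the AngII libraries. Ccn5 in fibroblasts was most like Eln at 0.49, then Fbln5 and Igf1 at 0.43 each. Ccn4 was most like the actinin gene Actn1 and Ltbp2 at 0.38 each and then Ccn2 at 0.36. In smooth muscle cells Ccn3 was most like the contractile genes Myl6 at 0.41, Ppp1r14a at 0.39 and Myl9 at 0.37, and least like Timp1, an inhibitor of matrix proteases, at -0.32. Ccn2 in smooth muscle cells was most like Tnfrsf12a at 0.35 and Eln and Anxa3 at 0.34 each. Ccn5 in smooth muscle cells was most like Igfbp2 at 0.24, Sparc at 0.22 and Eln at 0.21. For Ccn4 in smooth muscle cells no mean r over the 3 libraries exceeded 0.18, and at its low counts no gene is named.

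Regulators and receptors of the family were read from lists. The YAP and TAZ targets other than the CCN genes had 1 of 15 measured genes past 2-fold higher and 3 lower in smooth muscle cells when SHF AngII was compared with SHF baseline. Of all genes compared there, 2.86% were past it higher and 3.53% lower, and the median ratio of the list was -0.30 against -0.10 for all genes. In fibroblasts 0 of 15 were higher and 4 lower, against 4.64% and 10.7% of all genes, with a median of -0.53 against -0.21. Ankrd1, a cardiac ankyrin repeat gene, was the one higher, at 1.15 in smooth muscle cells with levels of 30.9 and 70.0, and Igfbp3 was at -2.41 in fibroblasts with levels of 92.5 and 16.6. The Hippo and TEAD regulators had 0 of 14 and 0 of 11 past 2-fold, with medians of -0.38 and -0.56. In both classes Ccn2, Ccn3, Ccn4 and Ccn5 were above the medians of these lists and Ccn1 was below them.

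Among CCN receptors, 1 of 8 measured genes was past 2-fold higher in smooth muscle cells and 1 of 7 in fibroblasts, and 0 were past it lower in either class. Of all genes 2.86% and 4.64% were past it higher. The gene was Itga5, the integrin subunit that binds fibronectin, with levels of 111 and 260 in smooth muscle cells of SHF baseline and SHF AngII (ratio 1.22) and of 20.8 and 51.5 in fibroblasts (1.27). The TGF-beta early targets had a median ratio of -0.12 in smooth muscle cells, against -0.10 for all genes, and of -0.24 in fibroblasts, against -0.21. Of them 1 of 7 was past 2-fold higher and 0 lower in smooth muscle cells, and 2 of 8 higher and 1 lower in fibroblasts. Of all genes 3.53% and 10.7% were past it lower in these classes. In fibroblasts Ltbp2, which encodes a latent TGF-beta binding protein, had levels of 156 and 335 (ratio 1.09), and Tgfbi, a secreted matrix protein gene, had levels of 239 and 70.7 (-1.74). Of 10 Wnt targets 1 was measured, Nkd1, with ratios of -0.31 in smooth muscle cells and -0.52 in fibroblasts. Among the SRF and MRTF genes, 2 of 3 measured were past 2-fold lower in smooth muscle cells and 2 of 2 in fibroblasts, and 0 were higher. Srf had ratios of -1.28 and -1.45.

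The immediate early genes had 0 of 18 past 2-fold higher and 7 lower in smooth muscle cells, and 0 higher and 10 lower in fibroblasts, with medians of -0.84 and -1.06. The shares of all genes past 2-fold lower were 3.53% and 10.7%. Between CNC AngII and SHF AngII no gene of any of these lists was past 2-fold in either class.

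Macrophages and endothelial cells lay outside both gates. The 1395 macrophages of CNC AngII held Ccn1 to Ccn5 at 36.1, 49.0, 12.1, 0.233 and 5.47 CPM, each below the level in both gates of that library. The SHF libraries had 5 and 10 macrophages, too few to compare. Endothelial cells, 49, 30 and 33 in number, held Ccn1 at 1807, 1424 and 622 and Ccn2 at 796, 1009 and 373, while their Ccn3 was at 4.68, 21.5 and 18.4, Ccn4 at 18.7, 9.23 and 0, and Ccn5 at 2.34, 105 and 13.8. Ccn6, the remaining member of the family in mammals, had 2, 1 and 1 UMIs over all barcodes of the libraries.

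The gates have thresholds, and Ccn3 was read on either side of them. Cells with 5 to 6 UMIs of Myh11, just inside the smooth muscle gate, held Ccn3 at 773, 696 and 541 CPM, and cells with 3 to 4 UMIs, just outside it, at 772, 613 and 375, the last below the level of both gates of CNC AngII. Fibroblasts with exactly 1 Pdgfra UMI held Ccn3 at 56.5, 427 and 450, against 43.6, 323 and 410 in those with more. Cells with 0 Pdgfra UMIs and at most 2 of Myh11, outside both gates, held it at 56.9, 373 and 317. A higher Ccn3 level in the AngII libraries was therefore present on either side of the Pdgfra threshold, though the cells without Pdgfra are not shown to be fibroblasts. The 396, 435 and 341 cells with both markers, which neither gate holds, had Ccn3 at 1129, 837 and 632.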

How the data were processed

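Single-cell RNA of 3 libraries of aortic cells was counted by droplet capture with a 10x Genomics 3′ v3 kit, per the labels' protocols. The authors deposited unnormalised UMI counts for each gene in each barcode. The submitters' processing notes name fastp, STAR 2.5, HTSeq 0.6.1 and mm10, without saying which step each one did. The SHF baseline table lists 18760 genes under older names and the AngII tables list 32285 genes each, and 518 genes were matched through synonyms. UMI totals were 92474476 at SHF baseline, and under AngII 147854476 for SHF and 150954701 for CNC. At least 99.6% of the UMIs of each library fell in the 18112 common genes.

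Barcodes with fewer than 500 genes or above 10% mitochondrial UMIs were dropped. Doublets called by Scrublet (scanpy 1.11.5), 2.01% to 2.65% of the cells of a library, were removed. UMIs were summed per gate and library, and a count of members past 2-fold was given beside that of all genes with a mean level of at least 10 CPM, with a pseudocount of 1. No test was made, since each group has 1 library. Intervals are exact at 95%, Poisson for levels, conditional binomial for ratios and Clopper-Pearson for shares, and the limit for a count of 0 is 3 counts. Shares were compared after thinning cells to 3000 UMIs, with shallower cells left out. Likeness over cells is Pearson's r of log(1 + UMIs per 10000), averaged over the libraries, among genes detected in 10% or more of the class's cells in each library, with mitochondrial and ribosomal protein genes left out. For each member and class the 3 genes with the highest mean r may be named, and of each gene list the 2 highest and the 2 lowest ratios. The lists hold CCN receptors, Hippo and TEAD regulators, YAP and TAZ targets, TGF-beta early targets, Wnt targets, immediate early genes and SRF and MRTF genes. Not every gene that this rule allows is reported here. The members and lists were chosen with earlier results of these data known. Alternatives covered gates, cell filters, doublets, free RNA, denominators, thinning, pseudocount, level filter, per-cell means and TMM scaling (edgeR 4.0.16). The ratio procedure was tested on simulated data. Gene positions come from the GENCODE annotation of GRCm38.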

Additional observations from a re-analysis of the deposited data

Results flagged for a closer look

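In 4 cases the ratio of a CCN gene between the same libraries pointed in opposite directions in smooth muscle cells and fibroblasts. Each rests on 1 library per group, and the gap between smooth muscle cells and fibroblasts was not tested. For SHF AngII over SHF baseline, Ccn3 had a log2 ratio of -0.22 in smooth muscle cells and 2.90 in fibroblasts, but the smooth muscle value was -0.05 under TMM scaling and 0.05 in the highest tertile of the immediate early share, so its sign is not firm. For CNC AngII over SHF AngII, Ccn3 had -0.58 in smooth muscle cells and 0.25 in fibroblasts. In that comparison Ccn1 had -0.35 and 0.07, and Ccn2 had -0.10 and 0.28. The fibroblast value of Ccn1 was -0.01 after thinning to 3000 UMIs, so its sign is not firm either.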

How the results depend on the processing

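The counts of members past 2-fold were recomputed under 19 alternatives in 7 comparisons, and 131 of 133 stayed within 1.5 times the reported count. This rule takes counts of 2 and 3 as the same and does not follow which members are past 2-fold. The share of all genes past 2-fold was not computed under the alternatives, so a changed count has no background beside it. In the lowest tertile of the immediate early share, Ccn1 fell short of it in fibroblasts of SHF AngII over SHF baseline (-0.02) while Ccn5 passed it (1.17). For SHF AngII over SHF baseline in fibroblasts, 1 member was past 2-fold in the highest tertile of the immediate early share, chosen after seeing the data, against 3 over all cells. For CNC AngII over SHF AngII in smooth muscle cells, 1 member was past 2-fold after thinning to 3000 UMIs, against 0. Of 662 ratios of single members, 344 moved by less than their counting interval and 318 by more, and 0 of those past 2-fold changed sign. Over the 19 alternatives, the fibroblast ratio of SHF AngII over SHF baseline ran from 2.5 to 4.15 for Ccn3, from -1.20 to -0.02 for Ccn1, from 0.28 to 1.72 for Ccn4 and from 0.40 to 1.17 for Ccn5. The stricter cell filter left 120 smooth muscle cells of SHF baseline, where Ccn5 had a ratio of -0.95 against -0.01 over all cells. The level filter of 50 CPM removed Ccn4 from comparisons in which it was low, so it has no value there. No paired analysis was possible because each group had 1 library. Depth limits Ccn4 in smooth muscle cells most, with 298 UMIs in SHF baseline and 907 in CNC AngII.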
